A study of Homo sapiens with 6 samples.

Results

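Mucin-type glycosylation was examined in spheroids of SW480 and SW620 through the genes for the enzymes that build and cap O-linked and N-linked glycans. Members were taken by platform gene symbol, as every feature of the deposited table whose symbol begins with GALNT, GCNT, ST3GAL, ST6GAL, ST8SIA, B3GNT, B3GALT, B4GALT, FUT or MGAT, with a digit required after GCNT and FUT. The rule found 28 features of 26 genes among the 14884 genes of the table. Of the 26 genes, 20 are protein-coding, and 19 of these belong to the GALNT family. The remaining coding gene is FUT2. The other 6 members are 4 antisense RNAs (GALNT9-AS1, ST3GAL6-AS1, ST8SIA6-AS1 and B3GALT5-AS1) and 2 pseudogenes (MGAT4EP and MGAT4FP). For the sialyltransferases the rule therefore reached 2 antisense RNAs and 0 coding genes, and coding genes of the GCNT, B3GNT, B3GALT, B4GALT and MGAT families were not analysed here. The members are for this reason described below as the GALNT family with 1 fucosyltransferase and 6 non-coding transcripts, and say nothing of sialyltransferase levels.

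SW480 is a colorectal cancer line labelled as coming from the primary tumour, and SW620 is a colorectal cancer line labelled as coming from a lymph node metastasis. Both were kept as floating spheres without serum and with added growth factors, and no treatment or genetic change is given for either line. RNA of each line was run on 3 arrays, which the series' design text calls technical replicates, so p-values and errors measure the spread between arrays of a line and not between separate cultures. Each line stands for its stage by itself, so stage of disease and cell line cannot be told apart, nor can fewer cells with a transcript and less of it per cell.

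Mucin-type O-glycans start when a GALNT enzyme, a polypeptide N-acetylgalactosaminyltransferase, moves GalNAc from a nucleotide sugar onto a serine or threonine in the Golgi. Many isoenzymes share this step and differ in the peptides they prefer, and some act mainly on peptides that already carry a GalNAc. Other transferases then extend the sugar into core structures, and fucosyltransferases and sialyltransferases cap the chains. In the colon such glycans cover the mucus and the cell surface, and short uncapped forms are well known in colorectal tumours.

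Expression is given as log2 values. That base was read from their range, since no source used here states it. Array medians lay between 4.04 and 4.07, and arrays of a line correlated over features with r from 0.988 to 0.992, against 0.963 to 0.965 between lines (features are not independent replicates). The median feature had a mean of 4.065 and the 25th percentile feature a mean of 3.53, and these serve below as marks of a dim signal, since detection calls were not used here. Of 13 listed markers of colorectal epithelium, 9 were measured and 7 had a mean above the median feature, while CDX1 and KRT20 did not. In this list SW620 had 2.90-fold less CDX2, a transcription factor of intestinal epithelium, while VIL1, KRT19 and KRT8 were higher by 0.62, 0.51 and 0.40 on the log2 scale, and the other 5 did not pass. Of 4 measured leukocyte markers, CD68 and LAPTM5 were above the median feature in mean, and of 4 measured endothelial markers 0 were. Of 3 measured fibroblast markers, LUM and THY1 were above the median feature in mean, and DCN lay below the 25th percentile feature in both lines. LUM was 9.34-fold higher in SW620, while THY1 differed by -0.030 (adjusted p = 0.861). The summed log2 values of the fibroblast markers ran from 11.8 to 12.6 in SW480 and from 15.5 to 15.7 in SW620, a gap that is mostly LUM (3.22 on the log2 scale). Those of the leukocyte markers ran from 19.6 to 19.7 in SW480 and from 19.5 to 19.7 in SW620, and those of the endothelial markers from 14.2 to 14.9 and from 14.4 to 14.8. CD68 was 1.35-fold higher and LAPTM5 1.33-fold lower in SW620. The part of these markers in the results below was not tested.

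The members split between the lines. In limma's moderated test, with Benjamini-Hochberg adjustment over all 14884 genes, 9 of 26 members passed an adjusted p of 0.05. GALNT5, GALNT7, GALNT1 and GALNT16 were higher in SW620, and GALNT6, GALNT9, GALNT9-AS1, GALNT2 and GALNT10 were lower. Over all genes 35.6% passed, 16.0% as higher and 19.5% as lower, so the share of members that passed (34.6%) lay near the background. A difference of at least 2-fold was found for 2 members, GALNT5 and GALNT7, against 6.07% of all genes. Tested against a minimum of 1.2-fold (limma's treat), 4 of the 9 still passed, namely GALNT5, GALNT7, GALNT1 and GALNT6. The median difference of the members was 0.0392 (SW620 minus SW480), beside 0.0132 over all genes. Members brighter than the median feature made up 7 of the 9, out of 11 such members, where 49.8% of bright genes passed in the table. The 15 dimmer members gave 2, where the table gave 10.5%. For 11 of 26 members the arrays of the lines did not overlap, as for 45.7% of all genes.

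**Figure D1:**
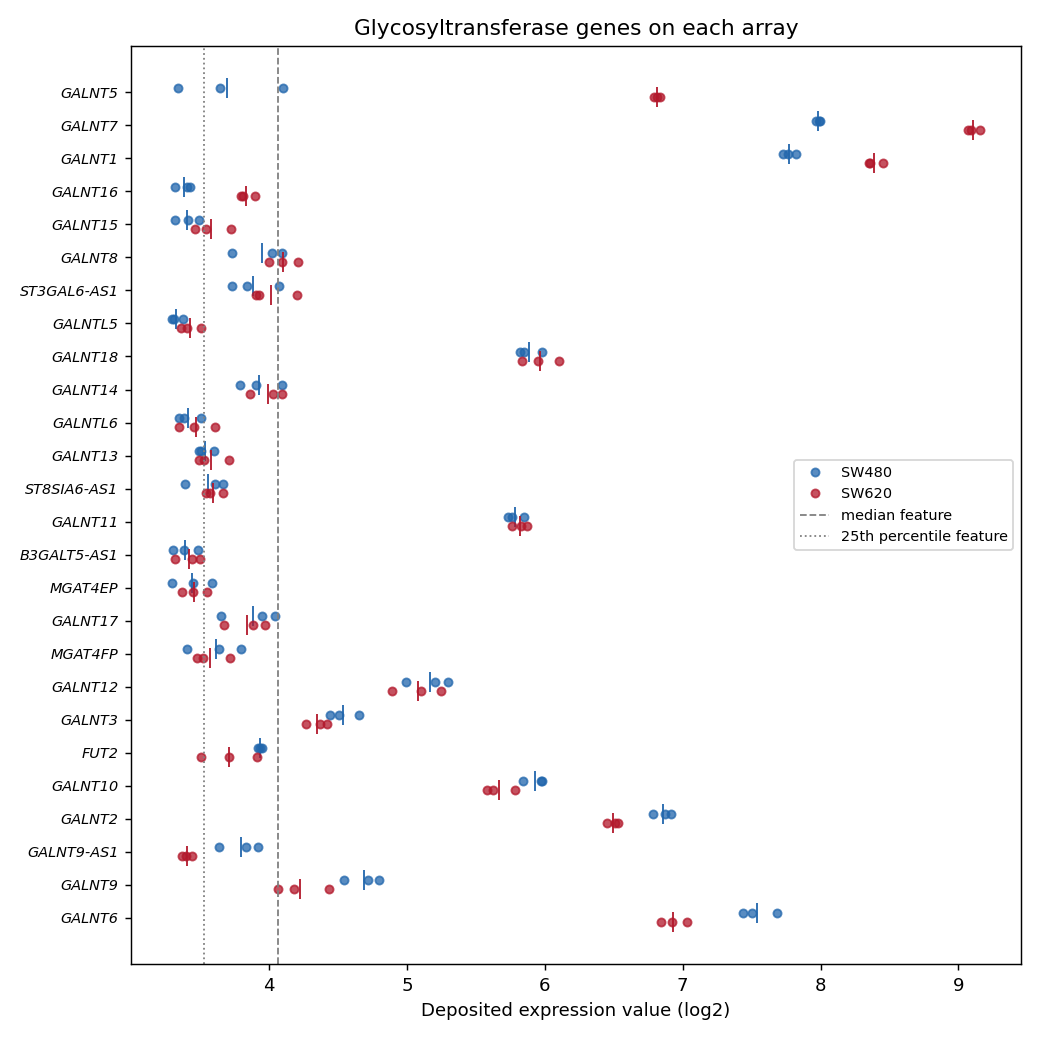
Deposited log2 values (horizontal axis) of the 26 members on each of the 6 arrays, in order of the difference between the lines. Points are arrays, short vertical bars are line means, and the vertical lines mark the median feature (4.065) and the 25th percentile feature (3.53). GALNT5 sits between 3.34 and 4.10 in SW480 and between 6.79 and 6.84 in SW620, while most members near the dashed lines have mixed arrays.

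GALNT5, a family member that can start O-glycans, had the largest difference of the members. Its log2 values were 3.65, 3.34 and 4.10 on the SW480 arrays and 6.81, 6.84 and 6.79 on the SW620 arrays. The SW480 arrays were thus all low and widely spread, while the SW620 arrays were all high and close together. The signal was 8.69-fold higher in SW620 (log2 difference 3.12, standard error 0.148, n = 3 arrays per line, limma adjusted p = 3.18e-09). The 95% interval ran from 6.96-fold to 10.9-fold, and the rise ranked 20th among 14884 genes. The mean in SW480 (3.69) lay below the median feature, so the fold rests on a level near the floor there. Leaving out single arrays gave differences between 2.94 (without SW480 replicate 2) and 3.32 (without SW480 replicate 3).

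The rise of GALNT5 was not shared by the genes beside it on chromosome 2. Among the 5 measured genes on either side, 1 was higher and 1 lower, and their median difference was 0.0293. The furthest from 0 were NEB (0.32) and PKP4 (-0.44). GALNT13, another family member, lies on the same chromosome with 1 measured gene between it and GALNT5, and its arrays overlapped (difference 0.0441, 95% interval from -0.15 to 0.24).

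GALNT7 and GALNT10 are the enzymes of the family best known for adding GalNAc to peptides that already carry one, and they moved in opposite directions. GALNT7 read 7.99, 7.99 and 7.97 in SW480 and 9.09, 9.16 and 9.07 in SW620. Every SW620 array lay above every SW480 array, by far more than the spread within either line. The signal was 2.18-fold higher in SW620 (1.12, standard error 0.0792, limma adjusted p = 1.46e-07). GALNT10 read 5.97, 5.84 and 5.98 in SW480 and 5.58, 5.79 and 5.63 in SW620, so its groups did not overlap but came close to each other. It fell by 0.27 on the log2 scale (standard error 0.0890, adjusted p = 0.0328). This call rests on single arrays. The adjusted p was 0.0918 without SW480 replicate 1, 0.103 without SW480 replicate 3, 0.114 without SW620 replicate 1 and 0.0799 without SW620 replicate 3, and it was 0.0556 when arrays were centred on the 75th percentile and 0.0528 with the replicate number as a block. Both genes are above the median feature in each line. GALNTL6, the measured gene next to GALNT7 on chromosome 4, differed by 0.0580 with overlapping arrays, and the 10 measured genes around GALNT7 had a median difference of 0.0714.

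The promoters of this pair are shown because the genes are related in function and differ in direction, from 250 bases before to 50 after the start in RefSeq (build GRCh38.p14). Capitals mark the GC box GGGCGG on either strand. GALNT7 lies at chr4:173168561-173168860 on the plus strand and GALNT10 at chr5:154190483-154190782 on the plus strand.
GALNT7: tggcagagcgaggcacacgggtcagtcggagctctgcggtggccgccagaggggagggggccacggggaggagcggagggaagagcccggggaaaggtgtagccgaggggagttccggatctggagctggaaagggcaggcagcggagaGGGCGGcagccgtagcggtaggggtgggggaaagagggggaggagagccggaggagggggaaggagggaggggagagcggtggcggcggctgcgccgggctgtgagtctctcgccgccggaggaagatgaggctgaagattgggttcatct
GALNT10: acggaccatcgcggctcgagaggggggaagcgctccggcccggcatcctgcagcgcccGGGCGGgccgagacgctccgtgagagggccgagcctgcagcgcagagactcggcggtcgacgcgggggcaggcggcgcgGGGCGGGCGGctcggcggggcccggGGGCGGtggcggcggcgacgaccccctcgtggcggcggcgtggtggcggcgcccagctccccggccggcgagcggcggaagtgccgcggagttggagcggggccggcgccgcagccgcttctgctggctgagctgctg
The GALNT7 window holds 1 GC box and 23 CpG dinucleotides. The GALNT10 window holds 4 GC boxes, overlapping matches counted, and 51 CpG dinucleotides. Over 35116 RefSeq promoter windows of this length, 45.0% hold a GC box and the median number of CpG dinucleotides is 14. Of all windows, 64.2% hold fewer CpG dinucleotides than that of GALNT7 and 99.0% fewer than that of GALNT10. The GALNT7 window also holds 1 CCAAT box (CCAAT on either strand, present in 34.6% of windows), and the TATA box TATAAA is in neither (11.5% of windows). These counts describe the letters of the windows.

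GALNT1 and GALNT2 are the broadly expressed enzymes of the first step, and they too went opposite ways. GALNT1 read 7.82, 7.77 and 7.73 in SW480 and 8.36, 8.45 and 8.35 in SW620, with no overlap. It was 1.53-fold higher in SW620 (0.62, standard error 0.0813, adjusted p = 5.18e-05). GALNT2 read 6.87, 6.92 and 6.78 in SW480 and 6.53, 6.45 and 6.51 in SW620, again without overlap, and fell by 0.36 (standard error 0.0820, adjusted p = 0.00364). This holds for the brighter feature of GALNT2. Its other feature, dimmer than the median feature, differed by 0.0178, with 3.90, 3.86 and 3.84 in SW480 and 4.04, 3.90 and 3.71 in SW620. The mean of both features fell by 0.17 (adjusted p = 0.137), so the call ends when the features are averaged. GALNT13, the close relative of GALNT1 known from neural tissue, lay between 3.49 and 3.71 on all 6 arrays.

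GALNT16, a close relative of GALNT2, read 3.32, 3.40 and 3.43 in SW480 and 3.79, 3.81 and 3.90 in SW620. The groups did not overlap and it was 1.37-fold higher in SW620 (0.45, standard error 0.0820, adjusted p = 0.000718). All its values lay below the median feature, and its SW480 mean (3.38) lay below the 25th percentile feature, so this is a change between dim signals. Around GALNT16 on chromosome 14, 5 of 10 measured genes were lower in SW620 and 0 higher, with a median of -0.22, so GALNT16 went against its neighbours. GALNT14, a further relative known for glycosylating death receptors, had overlapping arrays with a difference of 0.0649 (95% interval from -0.15 to 0.28).

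GALNT6 and GALNT3 are close relatives found in glandular epithelium and its tumours, and GALNT3 is known for protecting the phosphate hormone FGF23 from cleavage. GALNT6 read 7.68, 7.501 and 7.44 in SW480 and 6.84, 6.92 and 7.03 in SW620. All SW620 arrays were lower, and the gene was 1.52-fold lower in SW620 (-0.61, standard error 0.0938, adjusted p = 0.000193), the largest fall of the members. Among its 10 measured neighbours on chromosome 12, 2 were higher and 0 lower. GALNT3 read 4.65, 4.44 and 4.51 in SW480 and 4.37, 4.42 and 4.27 in SW620. Its groups did not overlap, yet the difference of -0.18 (95% interval from -0.38 to 0.0113) missed the threshold (adjusted p = 0.140).

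GALNT9, a brain-enriched enzyme, and the antisense RNA GALNT9-AS1 within its bounds were both lower in SW620. GALNT9 read 4.80, 4.54 and 4.72 in SW480 and 4.07, 4.43 and 4.18 in SW620, a fall of 0.46 (standard error 0.108, adjusted p = 0.00439). GALNT9-AS1 read 3.64, 3.92 and 3.83 in SW480 and 3.40, 3.44 and 3.37 in SW620, a fall of 0.39 (standard error 0.0922, adjusted p = 0.00440). In both cases the highest SW620 array lay below the lowest SW480 array. The antisense RNA lay below the median feature on every array and its SW620 mean (3.40) below the 25th percentile feature. Per the labels the hybridised target was single-stranded sense cDNA. The strand on which each feature's probes lie was not checked here. Of the 10 measured genes around GALNT9, 1 was lower, GALNT9-AS1 itself, and 2 were higher (PUS1 and DDX51).

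The promoters of this locus are shown because the transcripts run on opposite strands and fell together. GALNT9 lies at chr12:132329540-132329839 on the minus strand and GALNT9-AS1 at chr12:132275141-132275440 on the plus strand (GRCh38.p14), with GC boxes in capitals.
GALNT9: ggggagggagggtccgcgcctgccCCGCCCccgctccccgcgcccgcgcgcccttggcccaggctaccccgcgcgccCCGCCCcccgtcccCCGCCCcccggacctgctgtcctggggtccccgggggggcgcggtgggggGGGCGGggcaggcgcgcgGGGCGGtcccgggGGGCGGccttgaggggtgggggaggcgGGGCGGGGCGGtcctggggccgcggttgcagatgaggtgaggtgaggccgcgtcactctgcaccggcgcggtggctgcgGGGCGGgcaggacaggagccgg
GALNT9-AS1: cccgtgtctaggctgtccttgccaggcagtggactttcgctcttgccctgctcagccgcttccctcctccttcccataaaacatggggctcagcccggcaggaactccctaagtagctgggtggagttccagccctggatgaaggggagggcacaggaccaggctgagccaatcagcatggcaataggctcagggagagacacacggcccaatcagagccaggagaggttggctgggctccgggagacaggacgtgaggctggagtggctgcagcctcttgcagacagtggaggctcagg
The GALNT9 window holds 9 GC boxes, overlapping matches counted, and 39 CpG dinucleotides, more than 91.3% of RefSeq windows. The window of the antisense RNA holds 0 GC boxes, 7 CpG dinucleotides and 2 CCAAT boxes. RefSeq lists a further start of GALNT9, whose window has 0 GC boxes and 15 CpG dinucleotides. RefSeq promoter windows matched 19 of the 26 members.

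The closest relatives of GALNT9 in the family, GALNT8, GALNT17 and GALNT18, did not pass the test. GALNT18, the one of these above the median feature, read 5.98, 5.85 and 5.82 in SW480 and 5.83, 5.95 and 6.11 in SW620. Its arrays overlapped, and the 95% interval of the difference (from -0.13 to 0.28) allows at most a 1.22-fold rise. GALNT8 differed by 0.15 (from -0.079 to 0.38) and GALNT17, known from neural tissue, by -0.038 (from -0.29 to 0.21).

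GALNT11, which glycosylates the linkers of low-density lipoprotein receptors, and GALNT12, a colon enzyme linked to inherited colorectal cancer risk, were brighter than the median feature and did not pass. GALNT11 read 5.73, 5.85 and 5.77 in SW480 and 5.76, 5.83 and 5.87 in SW620. Its difference of 0.0365 had a 95% interval from -0.14 to 0.21, so a change beyond 1.16-fold upward lies outside it. GALNT12 read 4.996, 5.30 and 5.20 in SW480 and 5.10, 5.25 and 4.89 in SW620, with mixed arrays and a difference of -0.0860 (from -0.32 to 0.15). The dim members GALNT15, GALNTL5, known from testis, and GALNTL6 had overlapping arrays and differences of 0.17, 0.0975 and 0.0580.

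**Figure D2:**
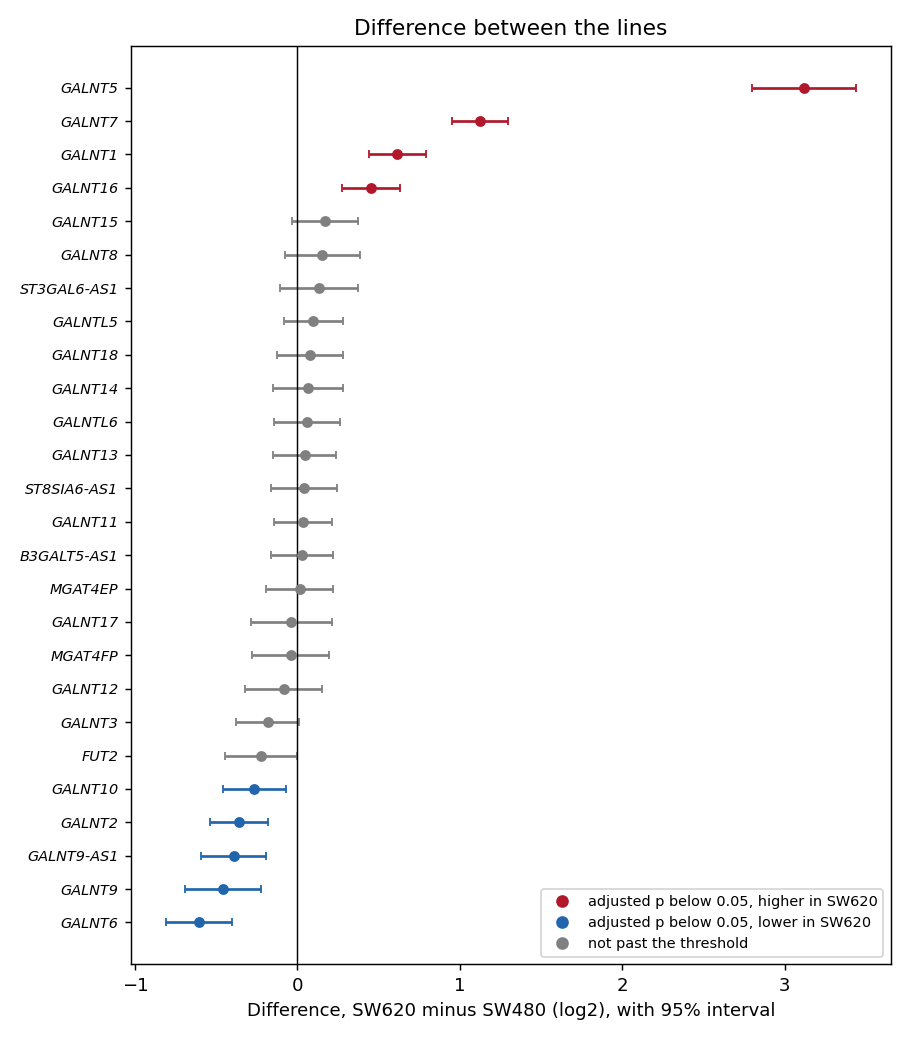
Difference of each member between the lines (SW620 minus SW480, log2, horizontal axis) with its 95% interval from limma, 3 arrays per line. Red and blue points passed an adjusted p of 0.05 over all genes as higher (4 members) and lower (5 members) in SW620, and grey points did not. GALNT5 (3.12) and GALNT7 (1.12) stand furthest to the right.

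FUT2, the fucosyltransferase that makes the H antigen in secretions and on mucosal surfaces, read 3.95, 3.92 and 3.94 in SW480 and 3.91, 3.51 and 3.71 in SW620. The SW620 arrays were all lower but spread widely, from just under the SW480 arrays to just under the 25th percentile feature. The difference of -0.23 (95% interval from -0.45 to -0.0027) did not pass over all genes (adjusted p = 0.112). Without SW620 replicate 1 it was -0.33 and passed (adjusted p = 0.0241), so 1 array decides this call.

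The other non-coding members did not pass. ST3GAL6-AS1 differed by 0.13, ST8SIA6-AS1 by 0.0419 and B3GALT5-AS1 by 0.0277, all with overlapping arrays. The pseudogenes MGAT4EP and MGAT4FP differed by 0.0129 and -0.0412, and the other feature of MGAT4FP by 0.11. All of these had means below the median feature, where the table calls 10.5% of genes.

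Related genes were also set side by side within each array, as the log ratio of their signals, which shows unequal change and not which gene changed. The 8 pairs were chosen after their values had been seen and each holds at least 1 member that passed, so the ratios are a description with no test. GALNT7 over GALNT10 rose by 1.39 in SW620, from 2.05 ± 0.0813 (SD, n = 3 arrays) to 3.44 ± 0.0704. GALNT1 over GALNT2 rose by 0.98, and GALNT2 over GALNT16 changed by -0.81. GALNT1 over GALNT13 rose by 0.57, GALNT6 over GALNT3 changed by -0.43, GALNT2 over GALNT14 by -0.43, GALNT16 over GALNT14 by 0.39 and GALNT9 over GALNT18 by -0.54. GALNT13 and GALNT16 had SW480 means of 3.53 and 3.38, so the ratios that hold them rest on dim signals. The ratios that hold GALNT2 use its brighter feature alone, while its other, dimmer feature differed by 0.0178 between the lines.

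**Figure D3:**
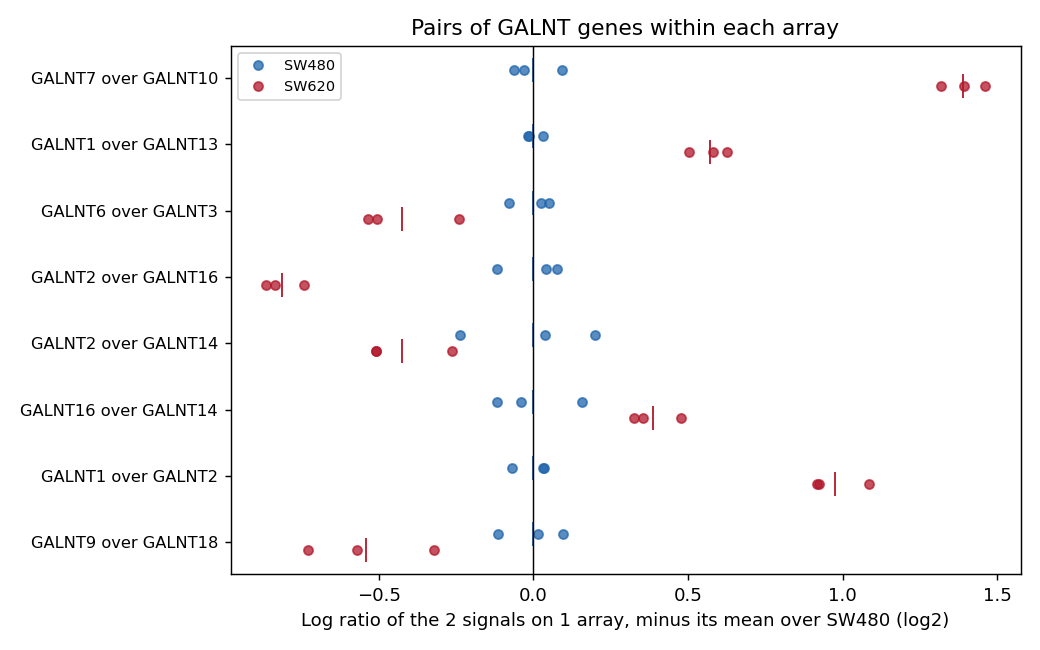
Log2 ratio of the signals of 2 GALNT genes on each array, less the mean of that ratio over the SW480 arrays (horizontal axis), for 8 pairs. Points are arrays and short bars are line means. GALNT7 over GALNT10 rises by 1.39 and GALNT2 over GALNT16 changes by -0.81.

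Genes that supply, extend, remove or bind such glycans, or hold the enzymes in the Golgi, were described from 8 lists by the same fit. The background called in either direction was 35.6% over all genes and 49.8% among genes above the median feature. The sialidases remove sialic acid. NEU1, NEU2, NEU3 and NEU4 were all higher in SW620. NEU3, the plasma membrane sialidase, read 5.97, 5.99 and 5.74 in SW480 and 6.31, 6.44 and 6.23 in SW620 (0.42, adjusted p = 0.00380). NEU1, the lysosomal enzyme, read 6.05, 6.30 and 6.21 and then 6.57, 6.63 and 6.58 (0.40, adjusted p = 0.00294). For both genes every SW620 array lay above every SW480 array. NEU4 rose by 0.39 between dim signals (3.66 to 4.04). NEU2 rose by 0.23 with an adjusted p of 0.0473, a call lost whenever any array was left out (0.0515 to 0.144). HEXA, a lysosomal hexosaminidase, rose by 0.30 (adjusted p = 0.0164), a call lost without SW480 replicate 2 (0.0583), SW480 replicate 3 (0.0645) or SW620 replicate 2 (0.0638). Of 8 measured genes for sialidases and lysosomal glycan removal (16 listed), 7 were above the median feature, where 49.8% of genes in the table passed. In all, 5 of the 8 rose, 4 of them above that feature, and 0 fell, with a median of 0.26. Without SW480 replicate 2, SW480 replicate 3 or SW620 replicate 2 the count was 3, and tested against a minimum of 1.2-fold (treat) it was 0. CTSA, the protective protein of NEU1, differed by -0.058 and did not pass.

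Of the sialic acid synthesis genes GNE, NANS, NANP and CMAS, only the entry enzyme GNE passed, and it was lower in SW620. GNE, which makes and phosphorylates the precursor of sialic acid, read 5.67, 5.48 and 5.45 in SW480 and 4.57, 4.53 and 4.58 in SW620. It was 1.96-fold lower in SW620 (-0.97, standard error 0.0871, adjusted p = 1.45e-06), with no overlap. NPL, the lyase that breaks sialic acid down, was 1.81-fold lower (-0.85). The later enzymes NANS, NANP and CMAS did not pass (-0.15, 0.014 and -0.062). UAP1, which makes UDP-GlcNAc, fell by 0.41, and UGP2, which makes UDP-glucose, fell by 0.42. Of 18 measured genes of nucleotide sugar synthesis and transport (30 listed), 2 rose, 4 fell and 12 did not pass, with a median of -0.11. Of the 18, 17 were above the median feature and held 5 of the 6 calls. The 2 that rose were FCSK, the fucose kinase (0.35), between dim signals (3.61 to 3.97), and GNPNAT1 of the hexosamine pathway (0.31). GNPNAT1 has 3 features, and its call ended when they were averaged (0.22, adjusted p = 0.0567). Both calls were lost without SW480 replicate 2 (adjusted p = 0.0560 and 0.0584) and against a minimum of 1.2-fold, where GNE and NPL were the 2 of the 4 lower genes that still passed.

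Golgi genes that keep glycosyltransferases in place were split, with 6 of 13 measured genes (16 listed) called. All 13 were above the median feature, where 49.8% of genes in the table passed, so the count lies near that background. COG4 and COG8, subunits of the conserved oligomeric Golgi complex, were 2.61-fold and 2.36-fold higher in SW620 (1.38 and 1.24). COG4 read 7.45, 7.39 and 7.36 in SW480 and 8.85, 8.73 and 8.76 in SW620, and COG8 read 7.13, 7.12 and 7.16 and then 8.40, 8.36 and 8.36. COG5, COG3 and COG6, subunits of the same complex, were 2.09-fold, 1.76-fold and 1.55-fold lower. COG1, COG2 and COG7 did not pass (0.18, 0.11 and -0.040). GOLPH3, which binds the tails of Golgi transferases, rose 1.503-fold. In all, 3 genes rose and 3 fell, with a median of -0.040. COG4 and COG8 lie on chromosome 16 with 15 measured genes between them, and FCSK is the measured gene next to COG4. COG7, which did not pass, is also on chromosome 16. So is the sulfotransferase gene CHST6, which was 1.73-fold lower, with 38 measured genes between it and COG4. COG3 and COG6 both lie on chromosome 13 with 30 measured genes between them.

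Of 14 glycan sulfotransferases, 1 rose and 2 fell. CHST10, which makes the HNK-1 epitope, was 1.95-fold lower (4.92, 4.77 and 4.73 in SW480; 3.80, 3.87 and 3.85 in SW620) and CHST6, known from the cornea, 1.73-fold lower. CHST7 rose by 0.34, a call lost against a minimum of 1.2-fold and without SW480 replicate 2 (adjusted p = 0.0804) or SW620 replicate 2 (0.0981). Of 11 measured genes of N-glycan assembly and trimming (31 listed), 1 rose and 3 fell, with a median of 0.14. Of the 11, 10 were above the median feature and held all 4 calls. Against a minimum of 1.2-fold OSTC alone passed. OSTC, a subunit of the oligosaccharyltransferase, was 2.01-fold lower (-1.01), the trimming glucosidase MOGS fell by 0.54 and ALG14, of lipid-linked sugar assembly, rose by 0.46. RPN1, another subunit of the oligosaccharyltransferase, fell by 0.28, a call lost without SW480 replicate 3 (adjusted p = 0.0589) or SW620 replicate 2 (0.0537). Of 8 other transferases measured (18 listed), 2 rose and 0 fell, the Fringe enzymes MFNG (4.002) and LFNG (0.46), which modify Notch. RFNG, the remaining Fringe enzyme, had overlapping arrays and did not pass (0.027, adjusted p = 0.897). The SW480 mean of MFNG (3.52) lay below the 25th percentile feature, so its difference rests on a signal near the floor, and the call of LFNG was lost against a minimum of 1.2-fold. C1GALT1C1, the chaperone of the core 1 enzyme that follows the GALNT step, differed by 0.20 (95% interval from -0.014 to 0.41) and did not pass. Without SW480 replicate 1 its difference was 0.29 and passed (adjusted p = 0.0420). Of 3 measured lectins (21 listed), which hold no galectin, 1 rose, SELE (0.29), from a SW480 mean below the 25th percentile feature. Against a minimum of 1.2-fold 0 lectins passed. Of 17 listed mucins 1 was measured, MUC22, which differed by -0.0046 (95% interval from -0.21 to 0.20), so the carriers of these glycans are hardly covered.

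**Figure D4:**
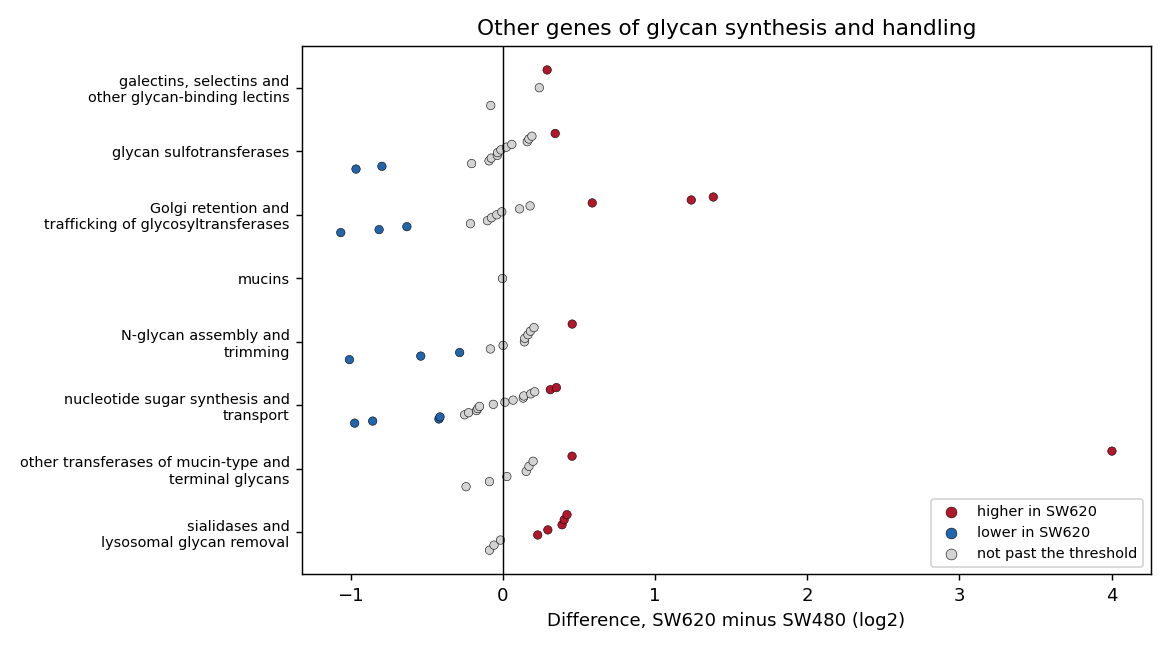
Difference between the lines (SW620 minus SW480, log2, horizontal axis) of each measured gene on 8 lists of glycan synthesis and handling. Each point is a gene; red and blue points passed an adjusted p of 0.05 over all genes as higher and lower in SW620, and vertical offsets within a list only separate the points. The 5 called genes for sialidases and lysosomal removal all lie to the right of 0, while the Golgi genes spread from -1.06 (COG5) to 1.38 (COG4).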

How the data were processed

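Total RNA was converted to sense-strand cDNA, fragmented, labelled with biotin and hybridised to 6 Affymetrix arrays, 3 per line, per the labels' protocols. The deposited table holds a log2 value for every feature on every array. Partek and RMA are named in the submitters' processing notes, with versions and parameters not given in the sources used here. As RMA removes background and brings arrays to a common distribution, folds of dim genes may come out too small. Precision is limited by the number of arrays.

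Of 53616 features, 16098 carry 1 platform gene symbol, updated through the gene identifier with a RefSeq gene table (GRCh38.p14; 16098 matched), and 37518 carry none here. The feature with the highest mean stood for each of the 779 genes with several. The resulting 14884 genes were fitted without a filter by lmFit and eBayes of limma 3.58.1 (R 4.3.3, two-sided tests, line as the factor, 8.39 prior degrees of freedom), and p-values were adjusted by Benjamini-Hochberg across the table, with a threshold of 0.05. Standard errors and 95% intervals are moderated.

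Members and lists were chosen with earlier results of these data known. The naming rule took members past the threshold at 2-fold, 3 further per family, listed colon genes, and up to 4 changed genes per list; other members and genes are named after their values were seen. No protein table was used, so relatives come from general knowledge of the family. The alternatives were other scalings, filters, variance models, feature rules, treat, the replicate block and leaving out each array.

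The fit was tested on simulated arrays of the 14884 genes in this comparison. It recovered 31 of 50 genes shifted by 0.5 on the log2 scale, 45 of 50 shifted by 1 and all 50 at each of 2 and 3. Of its 179 calls, 3 were false. The data gave 5293 calls, so far fewer genes were shifted in the simulation, and its noise was independent and normal. Its recovery and false-call counts therefore do not carry over to the real arrays.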

Additional observations from a re-analysis of the deposited data

How the results depend on the processing

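The 26 members were refitted under 17 alternatives, giving 422 comparisons of a member with its own main value. Of these 409 kept their side of the threshold, 12 lost the call, 1 gained it, and 0 reversed a called direction. With treat at a minimum of 1.2-fold the calls among members went from 9 to 4 and the lower ones from 5 to 1. The median difference of the members was -0.0860 when restricted to the 11 above the median feature, and ran from 0.00869 to 0.0432 with 1 array left out. Calls among members then ran from 8 to 9. Deviations of arrays with the same number were hardly correlated (-0.0089, -0.023 and -0.012). Arrays with different numbers were not compared, so whether the numbers mark a shared run was not tested. With the replicate block 8 members passed, and GALNT10 lost its call (adjusted p = 0.0528). Among the lists, the other transferases that were lower went from 0 to 1 with the filter at the median feature (and 0 to 1 over arrays left out). The nucleotide sugar genes that rose went from 2 to 1 with features averaged (0 to 2 over arrays left out) and to 3 with centring on the 75th percentile or a trended and robust variance, which add GFPT1. The N-glycan genes that rose went from 1 to 2 with centring on the 75th percentile or the filter at the median feature, and to 3 with a trended and robust variance. The lectins that rose went from 1 to 2 with that centring and to 0 with either filter, which drops the dim SELE. With arrays left out, sialidase and lysosomal genes that rose ran from 3 to 5 and sulfotransferases that rose from 0 to 1. Treat on the lists was added after the data had been seen. It took the sialidase and lysosomal genes that rose from 5 to 0, the nucleotide sugar genes that rose from 2 to 0 and those that fell from 4 to 2. It took the N-glycan genes that rose from 1 to 0 and those that fell from 3 to 1, the other transferases that rose from 2 to 1, and the sulfotransferases and lectins that rose from 1 to 0 each, while the Golgi genes kept 3 in each direction. Centring moved the median of all genes to 0.0402 at most. Dim signal limits the 15 members not above the median feature.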
